A study of Mus musculus with 6 samples.

Results

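The TGF-beta ligands and the genes that store, activate and follow them were measured in RNA of infarcted mouse hearts. The 10 genes were taken by symbol and were chosen with earlier results of these data known. They were the ligands Tgfb1, Tgfb2 and Tgfb3, the activin subunit Inhba and the activator Thbs1. The others were the latent binding proteins Ltbp1, Ltbp2 and Ltbp3, and the targets Tgfbi and Skil. The 10 genes took 10 of the 22206 features of a Clariom S mouse array, 1 feature for each gene. None of the 10 lay below the 30th percentile of mean signal (3.65 on the log2 scale), under which features were treated as dim.

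Hearts came from TTg mice (Tcf21iCre/Tomato/MGTH2A) 3 months after myocardial infarction, and were set against hearts of Ctrl mice (Tcf21iCre/Tomato) 3 months and 2 months after infarction, with 2 hearts and 2 arrays in each group. All mice were male and 8 weeks old when the experiments began, all had the left coronary artery ligated, and all carried the Cre and the Tomato reporter. Cre is driven by Tcf21, a gene of resting cardiac fibroblasts, and MGTH2A is a transgene for the heart regulators Mef2c, Gata4, Hand2 and Tbx5 that works in cells in which Cre has acted, so in TTg hearts the factors are meant for that lineage and not for every cell. Mice whose ejection fraction was preserved early after surgery had been left out. RNA was taken from the whole heart, and no heart without infarction was included. The time or means of switching on Cre is not given in the labels used here. The title of the study names direct reprogramming in chronic infarction, and the comparison of TTg with Ctrl hearts asks what the transgene changed in the scarred heart.

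TGF-beta is made as a precursor whose propeptide stays wrapped around the ligand and keeps it silent. Latent binding proteins are joined to the propeptide and hold the complex in the matrix, and thrombospondin-1 or integrins free the ligand from it. The free ligand acts through serine/threonine kinase receptors and Smad2 and Smad3, and in the infarcted heart it is known for turning fibroblasts into matrix-producing myofibroblasts. The ligands, their stores and their targets are therefore described in that order.

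Promoters were available for 7 of the 10 genes in the RefSeq table of build GRCm38.p6, each as 250 bases before to 50 after a start site. Those of Tgfb1 and Tgfb2 are shown because these ligands differed least and most between TTg and Ctrl hearts, and that of Ltbp2 because it was the latent binding protein that differed most. Capitals mark the matches to any of 9 motifs searched on both strands.
Tgfb1 promoter, chr7:25686752-25687051, plus strand: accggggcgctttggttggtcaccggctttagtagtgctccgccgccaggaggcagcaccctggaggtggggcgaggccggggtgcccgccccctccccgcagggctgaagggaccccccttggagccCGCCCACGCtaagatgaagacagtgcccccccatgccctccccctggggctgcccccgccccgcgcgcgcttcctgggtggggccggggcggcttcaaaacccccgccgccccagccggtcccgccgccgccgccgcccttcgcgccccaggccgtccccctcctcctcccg
Tgfb2 promoter, chr1:186705940-186706239, minus strand: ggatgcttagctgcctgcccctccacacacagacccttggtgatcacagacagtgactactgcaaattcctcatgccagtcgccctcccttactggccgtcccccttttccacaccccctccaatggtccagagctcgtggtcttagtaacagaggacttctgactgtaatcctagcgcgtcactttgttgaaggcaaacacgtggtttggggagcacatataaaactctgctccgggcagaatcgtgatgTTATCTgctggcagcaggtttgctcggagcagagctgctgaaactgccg
Ltbp2 promoter, chr12:84876442-84876741, minus strand: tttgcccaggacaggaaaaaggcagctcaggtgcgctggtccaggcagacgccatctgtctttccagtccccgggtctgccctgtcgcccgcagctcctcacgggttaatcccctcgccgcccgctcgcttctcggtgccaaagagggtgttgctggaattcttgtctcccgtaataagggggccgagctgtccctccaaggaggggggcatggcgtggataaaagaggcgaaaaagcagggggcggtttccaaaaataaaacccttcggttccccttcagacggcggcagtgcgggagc
The Tgfb1 window held the EGR motif (GCGNGGGCG) from base 129 of 300, read on the opposite strand, a motif present in 5.55% of 32851 promoter windows. The Tgfb2 window held the GATA motif (AGATAA) from base 252, also on the opposite strand, which 11.2% of windows hold. No match lay in the Ltbp2 window. The other motifs searched were AP-1 (TGANTCA, in 7.81% of windows), the cyclic AMP element CRE (TGACGTCA, 1.79%), the SMAD palindrome (GTCTAGAC, 0.213%), TEAD (GGAATG, 14.7%), T-box (AGGTGTGA, 1.28%), the CArG box (1.63%) and the MEF2 motif (0.557%). Motifs could overlap one another. Of the remaining windows, Ltbp1 held CRE at base 178 of 1 of its 2 windows, Ltbp3 held AP-1 at base 245 and Tgfbi held EGR at base 267, whereas Inhba held none of the 9. The GC content of the window was 77% for Tgfb1, 54.3% for Tgfb2 and 61% for Ltbp2, against a median of 52.7% over all windows.

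Replicates correlated across all features at 0.989 in TTg, 0.986 in Ctrl at 3 months and 0.984 in Ctrl at 2 months, and 2 arrays per group bound how precisely any value is known. Of the 9 ventricular cardiomyocyte markers, the lowest value on any array was 14.18 (Ryr2), so heart muscle was present throughout. Ctrl 3-month replicate 2 stood apart in 3 of 5 atrial markers, Myl7, Myl4 and Sln, with Myl7 at 3.45 against 9.73 to 12.39 on the other 5 arrays. Nppa, at 19.86, and Bmp10, at 3.04, lay within the range of the other arrays there. Of the transgene's factors, Tbx5 was at 10.72 and 9.31 in TTg, against 6.42 and 7.47 in Ctrl at 3 months, with 7.79 and 7.98 in Ctrl at 2 months, and Gata4 at 14.05 and 13.43 in TTg overlapped with 13.22 and 13.75 in Ctrl at 3 months. All 4 factors had a higher mean in TTg than in Ctrl at 3 months, and 3 were separate, where 19.1% of all features were. Their median log2 difference was 1.61, and 0.79 with TTg replicate 1 left out. None of the 4 passed limma's test over all features. Replicate 1 had the higher value of its pair for 8 of the 10 genes in TTg, 8 in Ctrl at 3 months and 9 in Ctrl at 2 months. Over all features it was higher in 50.4%, 51.0% and 47.2% of them in the same order of groups.

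In TTg hearts at 3 months, 8 of the 10 genes had a lower mean than in Ctrl hearts of the same time, and Thbs1, Tgfb2 and Ltbp2 were the furthest apart. No gene of the 10 passed limma's test at an adjusted p under 0.05, a threshold that 0.00450% of all features passed. At an unadjusted p under 0.05, 5 of the 10 were lower (Thbs1, Ltbp2, Tgfb2, Tgfb3 and Skil), where 4.11% of all features were lower, and 0 were higher, where 3.35% of all features were. In either direction 7.47% of all features reached that p. TTg and Ctrl values were separate for 7 of the 10 genes, against 38.4% of all features: 6 were lower, against 19.3%, and 1, Ltbp1, was higher, against 19.1%. The 10 genes were chosen with earlier results known, so these shares are no test of them against all features. The median log2 difference was −0.98 over the 10 genes and 0.01 over all features. Without Ctrl 3-month replicate 1 this median was −0.43 and 3 of the 10 genes were lower at an unadjusted p under 0.05, where 1.73% of all features were. Without TTg replicate 2 it was −0.89 with 3 such genes, against 2.03% of all features, and without Ctrl 3-month replicate 2 it was −1.65 with 6 such genes, against 5.79%. For each gene the text gives limma's log2 difference between group means with its SE (n = 2 arrays in each group) and the p adjusted over all features.

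**Figure D1:**
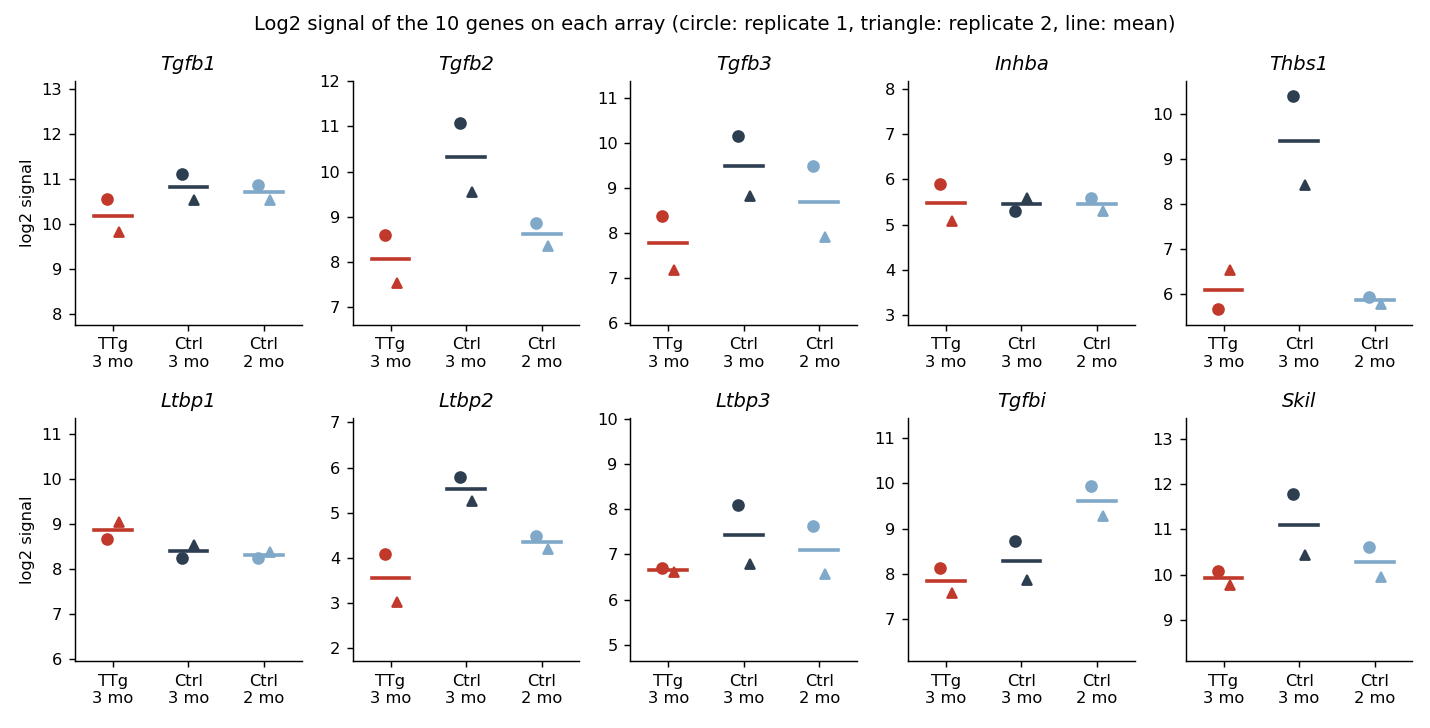
Log2 signal (y axis) of the 10 genes on each of the 6 arrays, by group (x axis), with circles for replicate 1, triangles for replicate 2 and lines for group means; every panel spans the same number of log2 units. Thbs1 stood at 10.39 and 8.43 in Ctrl at 3 months and between 5.67 and 6.55 on the other 4 arrays.

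Among the ligands, Tgfb2, which is needed for development of the heart valves and septa, differed most. Its log2 signal was 8.60 and 7.53 in TTg, against 11.08 and 9.55 in Ctrl at 3 months, with 8.87 and 8.34 in Ctrl at 2 months. Both Ctrl hearts at 3 months lay above all other hearts, and the TTg values overlapped with those of Ctrl at 2 months. The difference between TTg and Ctrl at 3 months was −2.25 ± 0.56, a 4.76-fold lower mean (adjusted p = 0.646). Leaving out Ctrl 3-month replicate 1 gave −1.48, and leaving out replicate 2 of that group gave −3.02.

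Tgfb3, the isoform linked to scar-poor healing and palate fusion, was at 8.37 and 7.19 in TTg, against 10.15 and 8.83 in Ctrl at 3 months, with 9.48 and 7.91 in Ctrl at 2 months. TTg and Ctrl at 3 months did not overlap, whereas Ctrl at 2 months overlapped with both. The difference between TTg and Ctrl at 3 months was −1.71 ± 0.66 (adjusted p = 0.661), and its 95% interval ran from −3.27 to −0.15. The difference was −1.05 without Ctrl 3-month replicate 1.

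Tgfb1, the isoform best known from immune cells, platelets and scar tissue, was at 10.55 and 9.82 in TTg, against 11.12 and 10.54 in Ctrl at 3 months, with 10.87 and 10.54 in Ctrl at 2 months. The groups overlapped in every comparison. TTg differed from Ctrl at 3 months by −0.65 ± 0.34 (adjusted p = 0.717, 95% interval −1.45 to 0.16), and the difference was −0.28 without TTg replicate 2.

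Within an array, the ratio of Tgfb2 to Tgfb1 set Ctrl at 3 months apart from both other groups. For Tgfb3 to Tgfb1, Ctrl at 2 months overlapped with both other groups. The log2 ratio of Tgfb2 to Tgfb1 was −1.95 and −2.29 in TTg, against −0.04 and −0.99 in Ctrl at 3 months, with −2.00 and −2.20 in Ctrl at 2 months. That ratio was thus higher on both Ctrl 3-month arrays than on the other 4 arrays. The log2 ratio of Tgfb3 to Tgfb1 was −2.18 and −2.63 in TTg, −0.97 and −1.71 in Ctrl at 3 months, with −1.39 and −2.63 in Ctrl at 2 months. Signals of different features depend on their probes, so the ratios show unequal differences and no order of abundance. The ratios were not tested.

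Inhba encodes the subunit that forms activin A, another ligand of the superfamily acting through Smad2 and Smad3. It was at 5.89 and 5.07 in TTg, against 5.31 and 5.59 in both Ctrl groups, in the opposite order of replicates. Its difference between TTg and Ctrl at 3 months was 0.03 ± 0.32 (95% interval −0.73 to 0.79, adjusted p = 0.995), and its sign turned when TTg replicate 1 (−0.38) or Ctrl 3-month replicate 1 (−0.11) was left out.

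Thbs1 encodes thrombospondin-1, a matrix and platelet protein that can free TGF-beta from its propeptide. Its log2 signal was 5.67 and 6.55 in TTg, against 10.39 and 8.43 in Ctrl at 3 months, with 5.95 and 5.79 in Ctrl at 2 months. Only the Ctrl hearts at 3 months were high, and the other 4 hearts lay between 5.67 and 6.55. The difference between TTg and Ctrl at 3 months was −3.30 ± 0.61, a 9.85-fold lower mean (adjusted p = 0.646). Leaving out Ctrl 3-month replicate 1 gave −2.32, and leaving out replicate 2 of that group gave −4.28.

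The latent binding proteins differed in opposite directions. Ltbp2, which unlike Ltbp1 and Ltbp3 does not bind latent TGF-beta and belongs to elastic microfibrils, was at 4.08 and 3.02 in TTg, against 5.79 and 5.27 in Ctrl at 3 months, with 4.49 and 4.20 in Ctrl at 2 months. The groups were fully separated, with Ctrl at 3 months highest and TTg lowest. Its difference between TTg and Ctrl at 3 months was −1.98 ± 0.39, a 3.94-fold lower mean (adjusted p = 0.646), and it was −1.45 without TTg replicate 2. TTg replicate 2 lies below the dim level of 3.65, so the background signal bears on how large this difference appears.

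Ltbp1, a main carrier of latent TGF-beta in the matrix, ran the other way. It was at 8.67 and 9.05 in TTg, against 8.25 and 8.54 in Ctrl at 3 months, with 8.25 and 8.37 in Ctrl at 2 months, and the TTg values lay above all 4 Ctrl values. The difference between TTg and Ctrl at 3 months was 0.47 ± 0.25 (adjusted p = 0.726, 95% interval −0.13 to 1.06). Ltbp3, a second carrier, known for its part in bone and teeth, was at 6.70 and 6.62 in TTg, against 8.10 and 6.78 in Ctrl at 3 months, with 7.64 and 6.56 in Ctrl at 2 months. Ltbp3 differed between TTg and Ctrl at 3 months by −0.78 ± 0.50 (adjusted p = 0.781), and by −0.12 without Ctrl 3-month replicate 1.

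Of the targets, Skil encodes SnoN, a repressor that Smads induce and that restrains them in turn. It was at 10.07 and 9.77 in TTg, against 11.78 and 10.43 in Ctrl at 3 months, with 10.60 and 9.94 in Ctrl at 2 months. TTg and Ctrl at 3 months did not overlap, and Ctrl 3-month replicate 1 was the highest heart. Skil differed between TTg and Ctrl at 3 months by −1.19 ± 0.46 (adjusted p = 0.661), and by −0.51 without Ctrl 3-month replicate 1.

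Tgfbi encodes a secreted adhesion protein of the matrix, named for its induction by TGF-beta. It was at 8.13 and 7.56 in TTg, against 8.72 and 7.85 in Ctrl at 3 months, with 9.95 and 9.28 in Ctrl at 2 months. The hearts at 2 months were the highest, and the groups at 3 months overlapped, which set this gene apart in its order from Thbs1, Tgfb2 and Ltbp2. TTg differed from Ctrl at 3 months by −0.44 ± 0.39 (adjusted p = 0.841), and by −0.00500 without Ctrl 3-month replicate 1.

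Other genes of the pathway, taken from lists of general knowledge, lay mostly below Ctrl in TTg hearts at 3 months, and 0 of them passed limma's test over all features. Among 16 measured genes of latency and activation, 14 had a lower and 2 a higher mean, with a median log2 difference of −0.51. Of these, 5 lower genes and 1 higher gene had an unadjusted p under 0.05, where 4.11% of all features were lower and 3.35% higher. The median was −0.50 with Ctrl 3-month replicate 1 left out, −0.49 with TTg replicate 2 left out and −0.44 with TTg replicate 1 left out. Ltbp4, another latent binding protein, was at 11.02 and 11.30 in TTg against 13.18 and 12.23 in Ctrl, and the membrane protease Mmp14 was at 5.61 and 4.44 against 6.27 and 6.52. Itgb6, the beta subunit of an integrin that frees TGF-beta, was the largest exception, at 10.75 and 9.96 in TTg against 8.54 and 9.36 in Ctrl.

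Of 10 receptor genes, 8 had a lower and 2 a higher mean in TTg (median −0.24). Of the lower receptors, 2 had an unadjusted p under 0.05, where 4.11% of all features were lower. The type I receptors Acvrl1 (7.98 and 7.96 in TTg against 9.16 and 8.69 in Ctrl) and Tgfbr1 (7.84 and 7.32 against 9.03 and 8.02) differed most. Eng, the co-receptor endoglin of endothelial cells, came next at 14.70 and 14.05 against 15.16 and 14.61. Leaving out Ctrl 3-month replicate 1 left 0 receptors at that p, and leaving out replicate 2 of that group gave a median of −0.12. Of 11 Smad genes and regulators, 9 had a lower and 2 a higher mean (median −0.28). At an unadjusted p under 0.05, 2 of this list were lower, where 4.11% of all features were. The lower genes were led by the feedback genes Pmepa1 (9.62 and 8.51 in TTg against 11.35 and 10.20 in Ctrl) and Smad7 (4.95 and 5.08 against 6.68 and 5.45), which TGF-beta signalling induces, and by the corepressor Tgif1 (4.44 and 4.09 against 5.53 and 4.61). Leaving out Ctrl 3-month replicate 1 or TTg replicate 2 left 0 genes of this list at that p, and leaving out Ctrl 3-month replicate 2 gave 4 with a median of −0.54.

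Transcriptional targets had the lowest median of the pathway lists, −1.73 over 17 measured genes, 15 with a lower and 2 with a higher mean in TTg. Of these, 7 lower genes and 1 higher gene, Acta2, had an unadjusted p under 0.05, where 4.11% of all features were lower and 3.35% higher. Leaving out Ctrl 3-month replicate 1 gave a median of −0.66 and leaving out TTg replicate 2 one of −0.94, with 2 lower and 0 higher genes at that p in either case, whereas leaving out Ctrl 3-month replicate 2 gave −2.73 with 11 lower genes and 1 higher gene. In that refit 5.79% of all features were lower and 4.82% higher at that p. Postn, a matrix protein of scars, was at 10.76 and 7.58 in TTg against 13.05 and 11.47 in Ctrl at 3 months. The cell cycle inhibitor Cdkn1a was at 10.65 and 8.47 against 12.69 and 12.25, and the crosslinking enzyme Lox at 4.95 and 4.15 against 8.16 and 6.59. Each of these 3 genes is also induced by other signals.

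Of 5 measured matrix proteins that bind the ligand, 4 had a lower mean in TTg (median −1.20), with Fmod at 5.18 and 4.25 against 10.16 and 6.59, Bgn at 14.91 and 13.88 against 16.61 and 15.41 and Aspn at 10.53 and 9.05 against 11.63 and 10.35. The median of the matrix proteins was −0.46 without TTg replicate 2, −0.56 without Ctrl 3-month replicate 1, −1.94 without TTg replicate 1 and −1.84 without Ctrl 3-month replicate 2. The 7 measured activin-related ligands and antagonists were split, 4 lower and 3 higher (median −0.16). The activin antagonist Fstl3 was at 7.57 and 6.65 in TTg against 8.84 and 8.00 in Ctrl, Fstl1 at 7.94 and 8.58 against 9.53 and 9.14, and myostatin, Mstn, at 4.93 and 4.55 against 3.94 and 4.07.

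**Figure D2:**
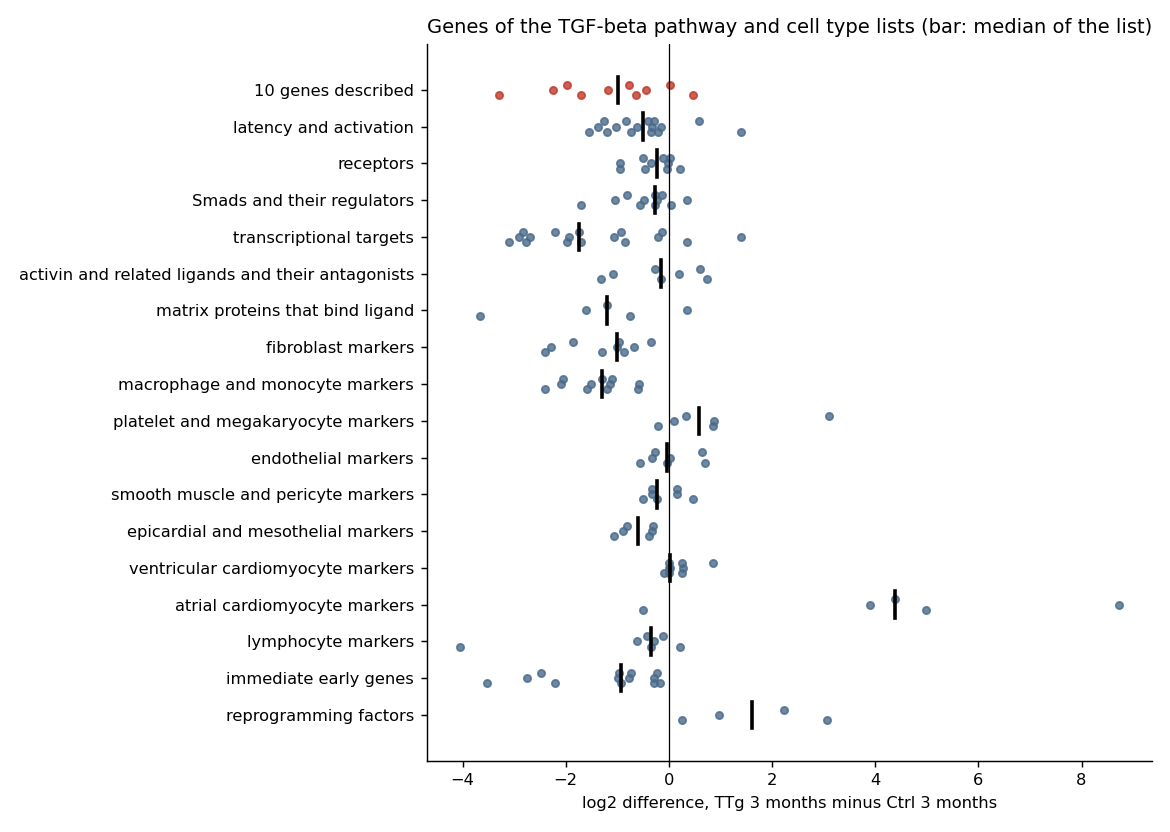
Log2 difference between TTg and Ctrl at 3 months (x axis) for each of the 10 genes and of the genes in 17 further lists (rows), 1 point per gene and a bar at the list's median. The median of the transcriptional targets was −1.73 and that of the 10 genes −0.98. All points of the fibroblast, macrophage, epicardial and immediate early gene rows lie below 0.

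Markers of fibroblasts and macrophages, cell types that make these proteins, also had lower means in TTg than in Ctrl at 3 months, and 0 of them passed limma's test over all features. All 9 measured fibroblast markers had a lower mean in TTg than in Ctrl at 3 months, and the log2 of their summed signal was 16.73 to 17.11 in TTg, against 17.68 to 18.32 in Ctrl at 3 months and 16.98 to 18.14 in Ctrl at 2 months. All 11 measured macrophage and monocyte markers had a lower mean in TTg, with summed levels of 12.38 to 13.49 in TTg, 14.07 to 15.56 in Ctrl at 3 months and 14.40 to 15.20 in Ctrl at 2 months. At an unadjusted p under 0.05, 4 fibroblast and 5 macrophage markers were lower, where 4.11% of all features were. The median log2 difference was −1.005 for fibroblast and −1.30 for macrophage markers. With Ctrl 3-month replicate 1 left out these medians were −0.775 and −0.79, with 9 of 9 fibroblast and 10 of 11 macrophage markers lower. With TTg replicate 2 left out the medians were −0.90 and −1.215 in the same order, so their size depended on single arrays. No fibroblast or macrophage marker was dim. The mean in TTg was also lower for 6 of 6 epicardial and 6 of 7 lymphocyte markers. The epicardial median was −0.60. With Ctrl 3-month replicate 1 left out it was −0.14, with 3 epicardial markers lower and 3 higher. Of the lymphocyte markers 4 were dim, and 1 passed limma's test over all features. Endothelial and smooth muscle markers had a lower mean for 4 of 7 genes each and atrial markers for 1 of 5. Of the 9 ventricular markers, 1 had a lower mean, 5 a higher one and the rest an equal one. In whole-heart RNA, fewer cells of a type and less RNA per cell cannot be told apart, and the part of these cells in the differences of the 10 genes was not tested.

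All 13 immediate early genes, which respond quickly to stress and handling of tissue, had a lower mean in TTg as well. Their sum was 14.90 to 15.51 in TTg, 15.24 to 16.76 in Ctrl at 3 months and 14.96 to 15.07 in Ctrl at 2 months. Ctrl 3-month replicate 1 was at the top, as for Thbs1, Tgfb2, Tgfb3, Ltbp2 and Skil. That array was also at the top for the summed fibroblast markers (18.32), macrophage markers (15.56) and transcriptional targets (17.03). For the receptors and the matrix proteins that bind the ligand, Ctrl 2-month replicate 1 was at the top. The immediate early sum is mostly Dusp1, at 14.81 and 15.37 in TTg against 16.57 and 15.07 in Ctrl at 3 months. The median difference of the list was −0.92, and with Ctrl 3-month replicate 1 left out it was −0.21 with 10 of 13 genes lower. Of this list 1 gene, Fos, was dim, and the list's part in the result was not tested. Platelet markers had a lower mean in TTg for 1 of 6 measured genes and a higher one for 5 (median 0.59), and with TTg replicate 2 left out 4 were lower and 2 higher (median −0.34). Their summed level was 7.56 to 11.04 in TTg, 7.88 to 7.92 in Ctrl at 3 months and 8.79 to 9.19 in Ctrl at 2 months, with Gp6 dim. The highest of these sums, in TTg replicate 2, is mostly Ppbp, at 10.70 in that heart and 3.09 in TTg replicate 1. The part of platelets in the result was not tested.

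Between 3 and 2 months in Ctrl hearts, Thbs1, Tgfb2 and Ltbp2 had a higher mean at the later time and Tgfbi a lower one. The mean was higher at 3 months for 8 of the 10 genes, lower for 1 and equal for Inhba. In limma, 0 of the 10 passed at an adjusted p under 0.05, where 0.00450% of all features passed. At an unadjusted p under 0.05, which 8.00% of all features reached, 3 were higher against 3.91% of all features, and 1 was lower against 4.09%. Groups were separate for 4 genes, against 35.7% of all features: these 3 higher genes, where 18.3% of all features were higher, and Tgfbi, where 17.4% were lower. The median log2 difference was 0.57 over the 10 genes and 0.01 over all features, and that of the 10 genes was 0.15 with Ctrl 3-month replicate 1 left out, 1.22 with replicate 2 of that group left out, 1.02 with Ctrl 2-month replicate 1 left out and 0.08 with replicate 2 of that group left out.

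Thbs1 differed between Ctrl at 3 and 2 months by 3.54 ± 0.61, an 11.6-fold higher mean (adjusted p = 0.396), and by 2.56 without Ctrl 3-month replicate 1. Tgfb2 differed by 1.71 ± 0.56 (adjusted p = 0.547), with 0.94 when Ctrl 3-month replicate 1 was left out, and Ltbp2 by 1.19 ± 0.39 (adjusted p = 0.547). Tgfbi differed by −1.33 ± 0.39, a 2.51-fold lower mean at 3 months (adjusted p = 0.523). Skil (0.84 ± 0.46) and Tgfb3 (0.80 ± 0.66) overlapped between the times, and Skil was at 0.16 without Ctrl 3-month replicate 1 and Tgfb3 at 0.01 without Ctrl 2-month replicate 2. Tgfb1 differed by 0.13 ± 0.34 (95% interval −0.68 to 0.93), Ltbp3 by 0.34 ± 0.50 and Ltbp1 by 0.09 ± 0.25. With Ctrl 3-month replicate 1 left out the sign turned for Tgfb1 (−0.17) and Ltbp3 (−0.32), with Ctrl 2-month replicate 2 left out for Tgfb1 (−0.04) and Ltbp3 (−0.20), and with Ctrl 3-month replicate 2 left out for Ltbp1 (−0.06).

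The transcriptional targets had a median of 0.69 with 13 of 17 genes higher at 3 months, led by Cdkn1a at 12.69 and 12.25 at 3 months against 8.54 and 8.39 at 2 months. The median of the targets was −0.01 with Ctrl 3-month replicate 1 left out and −0.15 with Ctrl 2-month replicate 2 left out. Latency and activation genes had a median of 0.38 with 13 of 16 higher, and the receptors one of −0.08 with 5 of 10 higher, which was 0.05 with Ctrl 3-month replicate 1 left out and 0.13 with Ctrl 2-month replicate 1 left out. None of these genes passed limma's test over all features, and 5 higher targets, 4 higher latency and activation genes, and 1 higher and 1 lower receptor had an unadjusted p under 0.05, where 3.91% of all features were higher and 4.09% lower. The fibroblast markers had a higher mean at 3 months for 5 of 9 genes and macrophage markers for 3 of 11, whereas immediate early genes had one for 12 of 13. With 1 Ctrl array left out, the median ran from −0.84 to 1.02 for fibroblast and from −0.67 to 0.59 for macrophage markers. That of the immediate early genes ran from 0.385 to 1.59.

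TTg hearts at 3 months and Ctrl hearts at 2 months differed most in Tgfbi, and their Thbs1 values overlapped. In limma 0 of the 10 genes, and 0% of all features, passed at an adjusted p under 0.05. At an unadjusted p under 0.05, which 9.71% of all features reached, Tgfbi was lower, where 5.41% of all features were, and 0 of the 10 were higher, where 4.30% of all features were. Groups were separate for 3 genes, against 40.1% of all features: Tgfbi and Ltbp2 were lower in TTg, against 18.9% of all features, and Ltbp1 was higher, against 21.2%. The median log2 difference was −0.48 over the 10 genes and 0.02 over all features. With 1 TTg or Ctrl 2-month array left out, the median of the 10 genes ran from −0.75 (Ctrl 2-month replicate 2) to −0.08 (Ctrl 2-month replicate 1), and it was −0.20 with TTg replicate 2 left out.

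Tgfbi differed between TTg at 3 months and Ctrl at 2 months by −1.77 ± 0.39, a 3.41-fold lower mean (adjusted p = 0.340), Ltbp2 by −0.80 ± 0.39 (adjusted p = 0.566) and Ltbp1 by 0.55 ± 0.25 (adjusted p = 0.548). For Thbs1 the difference was 0.24 ± 0.61, with a 95% interval of −1.20 to 1.68 that leaves room for a difference of more than 2-fold either way, and it was −0.20 without TTg replicate 2. Among the ligands, Tgfb2 differed by −0.54 ± 0.56, Tgfb3 by −0.92 ± 0.66 and Tgfb1 by −0.52 ± 0.34, each with an interval that includes 0. Leaving out TTg replicate 2 gave −0.00500 for Tgfb2, −0.16 for Tgfb1 and −0.27 for Ltbp2, and leaving out Ctrl 2-month replicate 1 gave −0.13 for Tgfb3 and −0.02 for Skil. Skil differed by −0.35 ± 0.46, Ltbp3 by −0.44 ± 0.50, with 0.10 without Ctrl 2-month replicate 1, and Inhba by 0.03 ± 0.32, with −0.38 without TTg replicate 1 and −0.11 without Ctrl 2-month replicate 2. Each pair of comparisons shares a group of hearts, so their values for a gene are not independent.

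**Figure D3:**
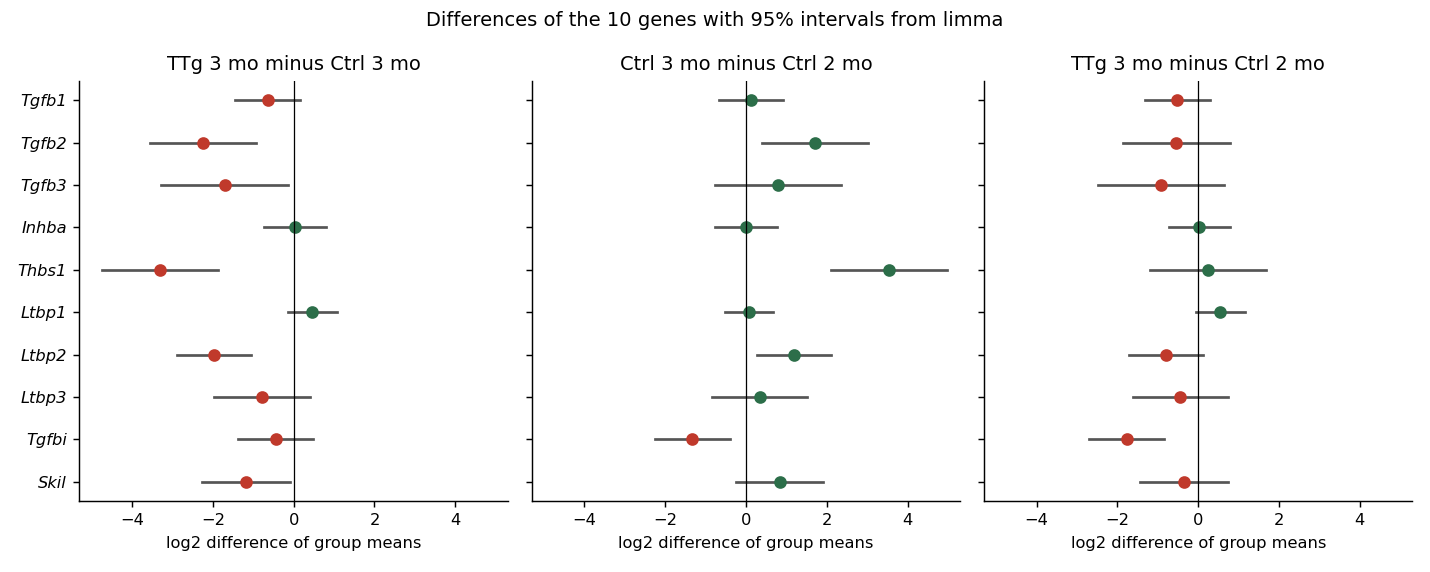
Log2 difference of group means (x axis) with its 95% interval from limma for the 10 genes (rows) in the 3 comparisons (panels); red points are below 0 and green points at or above it. Thbs1 was at −3.30 for TTg against Ctrl at 3 months, 3.54 for Ctrl at 3 against 2 months and 0.24 for TTg against Ctrl at 2 months.

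The ranges over the 6 arrays were 4.72 for Thbs1, 3.55 for Tgfb2, 2.96 for Tgfb3, 2.77 for Ltbp2, 2.39 for Tgfbi and 2.01 for Skil, and at most 1.54 for the other 4 genes. For these 6 genes the nearest profiles among all named features were found by the root-mean-square distance between log2 values, each centred on its own mean over the 6 arrays. Nearest to Thbs1 was Irs2, an adaptor of insulin signalling (distance 0.23), then Nr4a1, an immediate early nuclear receptor (0.54), the kinase gene Sik1 (0.64) and Synpo2l of the cardiac Z-disc (0.71). Irs2 was at 7.38 and 8.45 in TTg, 11.92 and 9.80 in Ctrl at 3 months, with 7.46 and 7.83 in Ctrl at 2 months.

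Nearest to Tgfb2 were Tnfrsf12a, the receptor of the cytokine TWEAK (0.24), Loxl3, a collagen crosslinking enzyme (0.25), the kinase gene Nuak1 (0.28) and the stress gene Gadd45g (0.30). Tgfb3 lay closest to Cd55b (0.06) and the proteoglycan Bgn (0.12), followed by Ncf4 and Abi3bp (both 0.16). Ltbp2 lay closest to the channel gene Panx1 (0.21), then Lilr4b (0.23) and Lilrb4a (0.26), close relatives that an array may not separate, and Cpxm2 (0.28). Skil lay closest to Ptprc, the pan-leukocyte antigen CD45 (0.10), and then to Il1r1 (0.12), Rasl11b and Myo1g (both 0.13). Tgfbi lay closest to the glutathione transferase Mgst1 (0.12), the ribosomal protein genes Rps15a (0.16) and Rps15 (0.19), and Ppia (0.20). Thbs1 and Tgfb2 share no name among their 4 nearest profiles, as the plot of nearest profiles shows. So few names do not set these genes apart, and both genes were highest on the Ctrl 3-month arrays.

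**Figure D4:**
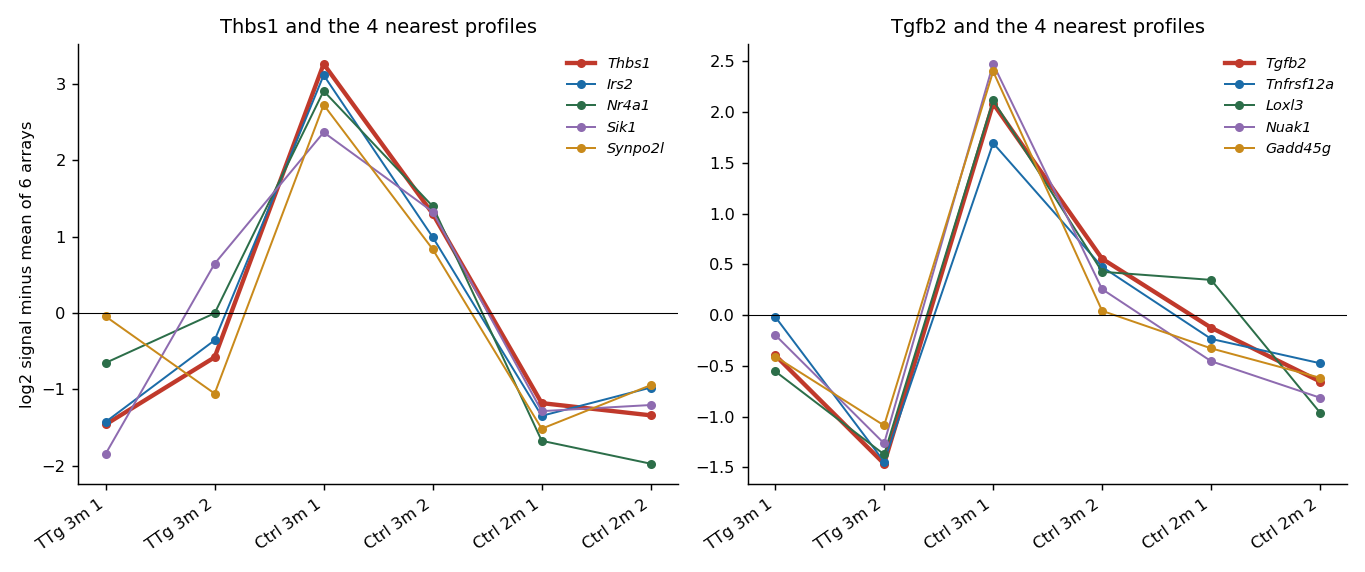
Log2 signal minus the mean of the 6 arrays (y axis) on each array (x axis) for Thbs1 and Tgfb2 (thick red lines) and the 4 nearest profiles of each (thin lines, joined only to guide the eye). All profiles peak on Ctrl 3-month replicate 1, where Thbs1 was at 10.39 and Tgfb2 at 11.08.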

How the data were processed

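RNA of 6 whole hearts (100 ng each) was measured on Clariom S arrays. The authors deposited log2 values, 1 per array feature; the submitters' processing notes list Transcriptome Analysis Console 4.0, and the summary, background and normalization methods are not given in the sources used here. Medians of the arrays ran from 4.91 to 5.00 on the log2 scale.

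The values were used as deposited. Gene names came from GEO's platform annotation, with 1 symbol for 19572 features and none for 2634. Groups came from the sample titles, and the design text calls the hearts independent biological replicates. Differences were fitted over all 22206 features and all 6 arrays with limma 3.58.1 in R 4.3.3 (lmFit and eBayes, 1 coefficient per group, 3 residual and 4.13 prior degrees of freedom), two-sided, with Benjamini-Hochberg adjustment over all features. The fit was tested on simulated data. Promoter windows were searched in Python 3.11.15.

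The 10 genes, the 17 lists (150 of 160 genes measured) and the motifs were chosen with earlier results of these data known. Named were the 10 genes, up to 3 genes per pathway list by size of difference, and the 4 nearest profiles of each gene with a range of at least 2. Alternatives were a trended or robust prior, quantile normalization, median centring, dim features left out, a fit on the compared groups only, each array left out, the replicate number as a block, named features only, and calls by unadjusted p and at least 2-fold.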

Additional observations from a re-analysis of the deposited data

How the results depend on the processing

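None of the 10 genes passed an adjusted p under 0.05 in any comparison under any of the 14 refits that changed the fit, the values or the arrays. An unadjusted p under 0.05 with a 2-fold minimum called 5, 4 and 1 of them for TTg against Ctrl at 3 months, Ctrl at 3 against 2 months and TTg against Ctrl at 2 months, and 666, 613 and 886 features. Over all features, TTg against Ctrl at 3 months called 1 feature, 2 with the compared groups alone, and 0 to 2 with an array left out. Ctrl at 3 against 2 months called 1, and 0 with a trended prior, quantile normalization or dim features left out, and 0 to 6 with an array left out. TTg against Ctrl at 2 months called 0, 1 with a robust prior, and 0 to 22 with an array left out.

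The replicate number as a block called 11 features for TTg against Ctrl at 3 months and 5 for TTg against Ctrl at 2 months, and 0 of the 10 genes. Deviations from the group means of same-numbered arrays correlated at 0.120 to 0.136, and no label says that the numbers pair hearts. With the block, the adjusted p for TTg against Ctrl at 3 months was 0.101 for Tgfb2, 0.103 for Tgfb3, 0.103 for Ltbp2 and 0.156 for Thbs1.

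The sign turned only with an array left out. The ranges were −0.38 to 0.44 for Inhba in TTg against either Ctrl group. They were −0.17 to 0.42 for Tgfb1, −0.32 to 1.0 for Ltbp3 and −0.06 to 0.23 for Ltbp1 in Ctrl at 3 against 2 months, and −0.20 to 0.68 for Thbs1 and −0.98 to 0.10 for Ltbp3 in TTg against Ctrl at 2 months. In TTg against Ctrl at 3 months Thbs1 ran from −4.28 to −2.32, Tgfb2 from −3.02 to −1.48 and Ltbp2 from −2.51 to −1.45. The size and direction of these shifts depended on which array was left out.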

Other observations

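Acta2 and Inha had higher means in TTg than in Ctrl at 3 months while the medians of their lists were lower, and both were chosen here after their values were seen. Acta2, the smooth muscle actin of myofibroblasts and vessels, was at 14.67 and 14.62 in TTg, against 12.82 and 13.69 in Ctrl at 3 months, while Ctrl hearts at 2 months had 13.35 and 11.48, so both TTg hearts lay above all 4 Ctrl hearts. Inha, the inhibin alpha subunit, was at 6.67 and 7.15 in TTg, 5.80 and 6.80 in Ctrl at 3 months, while Ctrl hearts at 2 months had 5.40 and 5.41. Neither gene passed limma's test over all features in any comparison.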
